A study of Mus musculus with 18 samples.

Results

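RAD21 binding was examined at 44 genes of the cell cycle and of DNA replication, out of 22367 protein-coding genes. The 44 genes were a list by function and were not picked by their peaks, but the list was chosen with earlier results of these data known. A peak was assigned to a gene when its centre lay in the gene body or within 20 kb of either end, on mouse assembly mm9 with GENCODE release M1. All 44 genes were found once in the annotation. Overlapping peaks of different lists were merged, and 48 of the 18957 merged sites lay at 27 of the 44 genes. These sites held 168 of the 54864 deposited peaks.

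RAD21 is the kleisin subunit of cohesin, and chromatin bound by it was sequenced from splenic B cells of C57BL/6 mice (substrain C57BL/6J) aged 8 to 10 weeks. Resting cells were taken before stimulation, and stimulated cells after 48 h or 96 h of culture with LPS, a bacterial cell wall component that makes B cells divide, and IL-4, a cytokine that directs switching to IgG1. Each time point had 3 replicates of pooled cells from 12 mice each, and the cells of the 96 h time point had been enriched for switched, IgG1-positive cells, so that time in culture and this selection cannot be told apart. The cells carried no engineered allele. There were 12 peak lists, 1 per replicate and 1 per time point from the merged reads of its replicates, called pooled below. Each peak had a score from the authors' peak caller, which is given here as a percentile within its own list. Peaks do not measure RNA, so the cell type could not be checked against marker genes.

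Resting B cells are outside the cell cycle, and LPS with IL-4 drives them to divide. D-type cyclins with Cdk4 or Cdk6 start the inactivation of the RB family, which frees E2F factors to turn on genes for origin licensing and DNA synthesis, and later cyclins and mitotic kinases carry the cell through division. Cohesin holds sister chromatids together after replication, and in interphase it forms chromatin loops that often stop at sites of CTCF, a DNA-binding protein. A peak near a gene marks where cohesin was enriched, and does not measure the activity of that gene.

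The lists differed in length, from 821 peaks in resting replicate 2 to 8579 peaks in 96 h replicate 3. The lists do not give the number of reads behind a peak, so cohesin may be present where a list has no peak. Replicate 2 of the 48 h-stimulated B cells stood apart. Its peaks had a median width of 65 bp, against 151 to 212 bp in the other 8 replicates, and 52.1% of them lay at a protein-coding gene, against 75.8% to 80.2% in the others. Of the sites where it was the only replicate with a peak, 49.3% away from the 44 genes held a short tandem repeat and 1.87% the motif described next. Some of the counts that it could set are also given without it, in alternatives added after the data had been seen.

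Most sites at the 44 genes held a sequence that is common to RAD21 sites over the genome. A 20-base motif was learned from 931 sites away from these genes, each called in at least 6 of the 9 replicates, and its consensus was NCCACNAGGGGGCGCNNNNG, whose core is the known binding sequence of CTCF. It was searched on both strands. A match to it was found in 39 of the 48 sites (81.2%), against 65.4% of 17978 other sites and 5.21% of windows 1 kb away from the sites at the 44 genes. Without sites whose only replicate was 48 h replicate 2, the shares were 90.7% (39 of 43) and 88.2%. All 17 sites with a peak in 2 or more replicates held a match, where 90.5% of all such sites did, and so did all 14 with a peak in 1 replicate other than 48 h replicate 2, where 89.8% did. The stretches below are the matches at the 14 sites that were called in 6 or more replicates, or in 2 or more of 1 time point and none of another. They are shown because the results turn on these sites. The motif is in capitals between 5 bases on each side, on the strand of the match.
Mki67, chr7:142927456-142927485, minus strand: aagtgGCCGCCAGGTGACGCTGTGGtccca
E2f2, 8.69 kb upstream, chr4:135719582-135719611, plus strand: agctgCCCTCTAGATGGCGCCCTTCccctt
Ccnd2, chr6:127097882-127097911, plus strand: tgtctGCCACTAGGTGGCAGCACAGaccca
Aurka, chr2:172204005-172204034, plus strand: cccagGCCACTAGGGTGCAGCACAGttcct
Ccnd3, chr17:47648286-47648315, plus strand: cttggTCCACCAGATGGAGCTATAGcccag
Cdt1, chr8:125075602-125075631, minus strand: tgacaGCCCCCAGAGGGCGCTGCGCcatca
Cdkn1a, chr17:29232569-29232598, minus strand: ctgatGCCGGTAGGGGGCGCTGTGCactca
E2f2, 12.1 kb upstream, chr4:135716202-135716231, minus strand: aacggGCCACAAGAGGGCAGTCACAcaccg
Cdc6, chr11:98783761-98783790, plus strand: acaggGACACCAGAGGGCACCATTAcaacg
Aurkb, chr11:68880565-68880594, plus strand: ctacgGCCACAGGGTGGCACTGAAActcag
Ccnd1, chr7:152123528-152123557, plus strand: tgcacGTCGCTAGGGGGCGCACACCgccca
Cdk6, chr5:3516925-3516954, minus strand: gcagtGACACTAGGGTGCAGCATTGtcctt
E2f1, chr2:154365640-154365669, minus strand: ttttgTCCTCCAGAGGGCACTTGATactag
Mcm5, chr8:77656559-77656588, plus strand: tggtgTCCATGAGAGGGCGACAGAGtacca
The score of these matches ranged from 12.45 log2 odds at Ccnd1 to 23.51 at Ccnd2, where a match needed 9.82. A match is a description of the sequence, and CTCF binding was not analysed here.

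In the lists as deposited, cell cycle and replication genes had a RAD21 peak more often in resting and 96 h-stimulated B cells than after 48 h. In resting cells, 9, 5 and 13 of the 44 genes had a peak in replicates 1, 2 and 3 (mean 9 ± 4, SD, n = 3). At 48 h the numbers were 4, 2 and 3, a mean of 3 ± 1 (SD, n = 3). At 96 h they were 8, 13 and 20, a mean of 13.7 ± 6.03 (SD, n = 3). Every 48 h replicate was below every replicate of the other time points, whereas resting and 96 h replicates overlapped.

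Longer lists reach more genes, so each list was set beside its own background, the mean share of other protein-coding genes from 20% shorter to 25% longer than each gene. In resting cells, 20.5%, 11.4% and 29.5% of the 44 genes had a peak, where genes of similar length had 12.7%, 4.89% and 20.0%. At 48 h, 9.09%, 4.55% and 6.82% had a peak, where genes of similar length had 8.04%, 11.9% and 8.30%. At 96 h, the shares were 18.2%, 29.5% and 45.5%, beside 15.8%, 23.95% and 39.6%. The 44 genes therefore exceeded their background by a mean of 7.94 ± 1.55 percentage points in resting cells and 4.64 ± 1.93 at 96 h, whereas the mean difference at 48 h was -2.60 ± 4.31 points (SD, n = 3 each). The 3 time points did not overlap in this excess, which ran from 6.47 to 9.55 points in resting cells, from 2.42 to 5.90 at 96 h and from -7.36 to 1.05 at 48 h. This separation depended on the settings. With a stricter score minimum, 48 h replicate 1 was at 6.50 points, above resting replicates 1 and 2 at 3.41 and 2.32, and with lists of equal length it was at 4.68, above resting replicate 1 at 3.66. The mean difference between 48 h and resting cells was -10.5 points as deposited and -8.16 without 48 h replicate 2. It was -4.55 with the stricter score, -5.30 with lists of equal length, -4.83 with no flank and -16.2 with a flank of 50 kb. No p is given for these totals, since the genes were chosen with earlier results of these data known. The order of resting over 96 h was lost when only peaks in the gene body were counted, with a mean difference of 0.560 points in favour of 96 h.

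**Figure D1:**
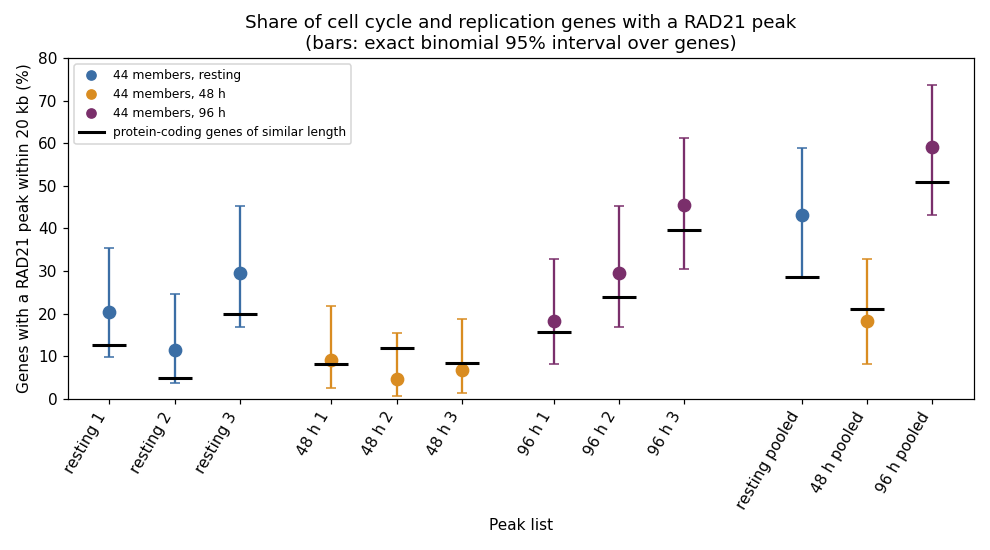
The percent of the 44 cell cycle and replication genes with a RAD21 peak in the gene body or within 20 kb (coloured points, with exact binomial 95% intervals over genes) is plotted for 9 replicates and 3 pooled lists, beside the mean share of protein-coding genes of similar length (black bars). The points of resting cells and of 96 h-stimulated cells lie above their black bars, and the point of the pooled 48 h list, at 18.2%, lies under its bar of 20.99%.

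The share of all peaks of a replicate that lay at the 44 genes was also lowest in the 48 h replicates as deposited. It was 0.429%, 0.609% and 0.447% in resting cells, 0.260%, 0.114% and 0.256% at 48 h, and 0.321%, 0.330% and 0.303% at 96 h. No replicate of 1 time point fell within the range of another in these lists. With the stricter score, however, 48 h replicate 1 had the highest share of the 9 replicates, 0.828%, where resting replicates ran from 0.413% to 0.568% and 96 h replicates from 0.274% to 0.442%. With every list limited to its 821 highest-scoring peaks, 4, 5 and 5 genes had a peak in resting cells, 4, 1 and 0 at 48 h, and 3, 4 and 4 at 96 h. The excess over genes of similar length in these lists was 3.66, 6.47 and 6.00 points in resting cells. It was 4.68, 0.0609 and -4.52 at 48 h, and 1.79, 3.85 and 3.79 at 96 h. In the number of genes, replicate 1 at 48 h thus reached the range of the other time points, and the 96 h mean no longer exceeded the resting mean.

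In the pooled lists, 19 of the 44 genes had a peak in resting cells (43.2%, exact binomial 95% interval 28.3% to 59.0%, counting error only). The share was 28.6% in genes of similar length and 26.5% in all protein-coding genes. At 48 h, 8 genes had a peak (18.2%, interval 8.19% to 32.7%), beside 20.99% in genes of similar length and 20.8% in all genes. At 96 h, 26 genes had a peak (59.1%, interval 43.2% to 73.7%), beside 50.9% and 47.6%. The share in genes of similar length lay within the interval at each time point, in resting cells close to its lower end. The share in all protein-coding genes lay below the interval in resting cells and within it at 48 h and 96 h. The difference from genes of similar length at 48 h, -2.81 points, turned to 2.35 with a stricter score, 2.83 with support by at least 2 replicates and 0.115 with no flank. At 96 h the difference of 8.14 points was 0.524 with a stricter score and -1.43 with lists of equal length. In resting cells the difference of 14.6 points kept its direction. It was 11.3 with a stricter score, 12.7 with lists of equal length, 9.73 with support by at least 2 replicates and 6.78 with no flank. A pooled list is 1 sample per time point and has no replicate check. In any of the 12 lists, 27 of the 44 genes (61.4%) had a peak, beside 58.1% of genes of similar length and 55.3% of all genes.

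By gene, but not by site, the pooled lists of these genes were nested. The 8 genes with a peak at 48 h, namely Ccnd1, Ccnd2, E2f2, Mcm5, Cdc6, Aurkb, Mad2l1 and Mki67, also had one in both other lists. They were 18.2% of the 44 genes, where 13.7% of all protein-coding genes had a peak in all 3 pooled lists. At Aurkb, however, the pooled 48 h peaks lay at sites without a pooled resting or 96 h peak. At those sites 48 h replicate 2 was the only replicate with a peak. The Aurkb site shared by the resting and 96 h lists had no 48 h peak, and Pole had different sites in the resting and 96 h lists. The 19 genes with a peak in resting cells all had one at 96 h. Thus 0 genes were in the resting list and not in the 96 h list (1.39% of all genes). Also 0 were in the 48 h list and not in the resting list (6.80% of all genes). From genes of similar length, 0.621 and 2.78 of the 44 genes would be expected in these cases. Both backgrounds lay within the exact binomial interval of 0% to 8.04%, which covers counting error over genes only. With so few genes expected and 1 pooled list per time point, these counts do not decide whether the nesting differed from that of other genes. A peak in resting cells and none at 48 h was found for 11 genes (25.0%), namely Ccnd3, Cdk6, Cdkn1a, Rb1, Rbl1, Mcm6, Cdt1, Pcna, Pole, Cdk1 and Aurka. That share was 13.9% in genes of similar length and 12.5% in all genes. With 48 h replicates 1 and 3 in place of the pooled 48 h list, 15 genes (34.1%) had a resting peak and none at 48 h, beside 17.9% and 16.3%. A peak at 96 h and none in resting cells was found for 7 genes (15.9%), namely Ccne2, E2f1, Mcm2, Ccnb2, Foxm1, Bub1 and Top2a, beside 22.5% of all genes.

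Support by at least 2 of 3 replicates was stricter. In resting cells 9 genes passed, namely Ccnd2, Ccnd3, Cdkn1a, E2f2, Cdc6, Cdt1, Aurka, Aurkb and Mki67, which is 20.5% beside 10.4% of all protein-coding genes. At 48 h, Ccnd2, E2f2 and Mki67 passed, 6.82% beside 5.22%. At 96 h 12 genes passed, 27.3% beside 23.7%. Of the 44 genes, Ccnd3, Cdkn1a, Cdc6, Cdt1 and Aurka (11.4%) had a peak in at least 2 resting replicates and in no 48 h replicate, where 3.47% of all genes did. Without 48 h replicate 2, Aurkb joined them, 6 genes (13.6%) beside 4.02% of all genes. The first 5 with Ccnd1, Cdk6 and E2f1 had a peak in at least 2 replicates of 96 h and in no 48 h replicate (18.2% beside 11.9%), and the count was also 8 without 48 h replicate 2, beside 13.8%. Those last 3 genes had none in resting replicates either (6.82% beside 8.93%).

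**Figure D2:**
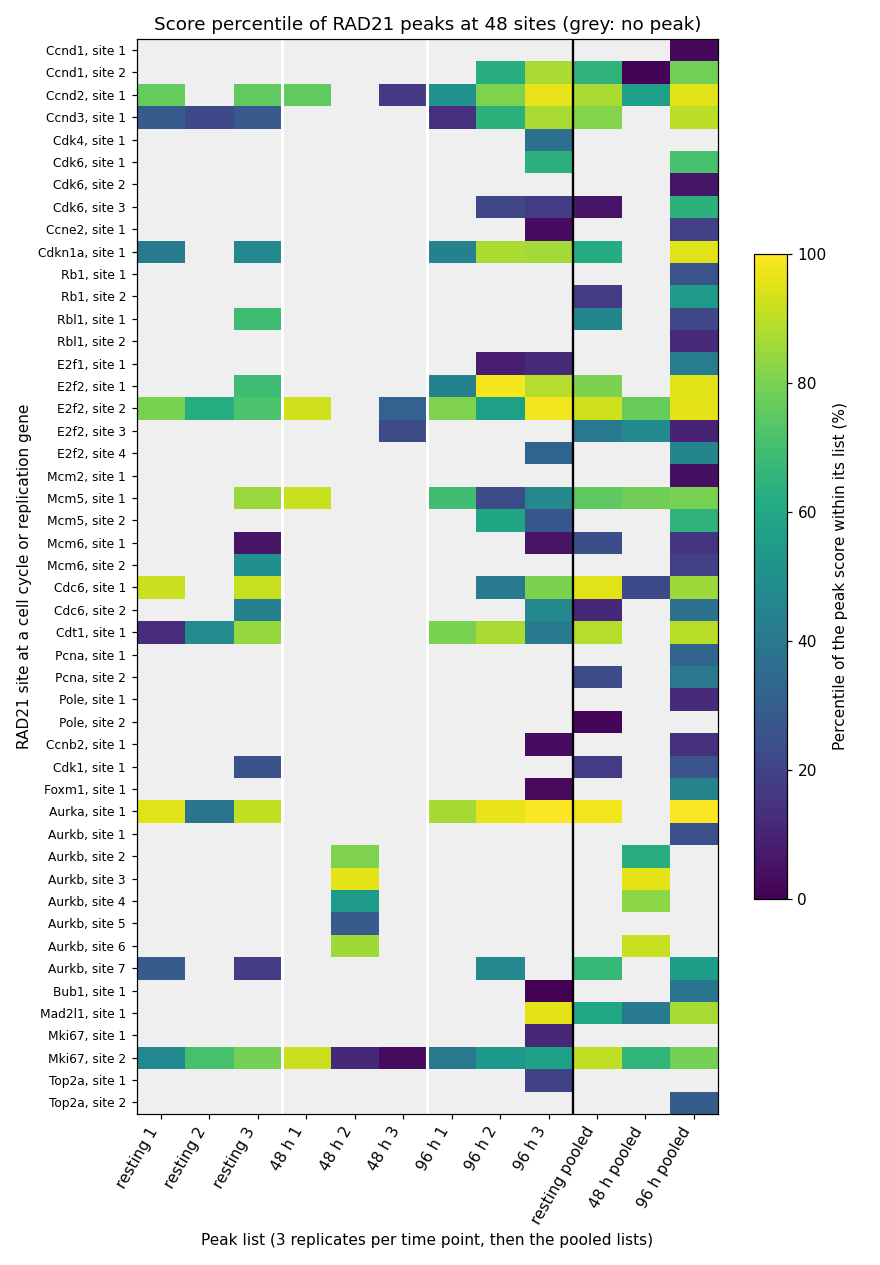
Each row is 1 of the 48 sites at cell cycle and replication genes and each column a peak list, with the colour giving the percentile of the peak's score within its list and grey meaning no peak. The Mki67 site 2 row is filled in all 9 replicates, the rows of Ccnd3, Cdt1 and Aurka are filled in resting and 96 h replicates and grey at 48 h, and 5 Aurkb rows are filled in 48 h replicate 2 alone among the replicates.

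The D-type cyclins and their kinases, which respond to mitogens in G1, had sites at all 5 genes. Of genes of similar length to each of them, 49.3% to 74.6% had a peak in some list. In intron 2 of Ccnd2, which encodes cyclin D2, chr6:127097729-127098080 had a peak in 7 of 9 replicates. Its score percentiles were 76.5 and 75.7 in resting replicates 1 and 3, 75.6 and 17.1 in 48 h replicates 1 and 3, and 50.5, 80.5 and 96.5 in the 96 h replicates. Resting replicate 2 and 48 h replicate 2 had no peak there.

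In intron 1 of Ccnd3, which encodes cyclin D3, chr17:47648150-47648434 had a peak in all 3 resting replicates (percentiles 28.5, 21.9 and 28.1), in no 48 h replicate and in all 3 at 96 h (13.7, 64.1 and 87.4). The pooled percentiles were 81.6 in resting cells and 89.6 at 96 h, with no peak in the pooled 48 h list. In 4 of the 6 replicates with a peak the site was thus in the lower part of its list, while it was in the upper part of both pooled lists.

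Ccnd1, for cyclin D1, had a site in intron 2 at chr7:152123411-152123684, with percentiles of 62.9 and 87.4 in 96 h replicates 2 and 3. No other replicate had a peak there, although all 3 pooled lists did, at percentiles of 65.2, 0.860 and 78.8 in time order. A second Ccnd1 site, in the 3′UTR, was called in the pooled 96 h list only, at percentile 1.97. Cdk6, a kinase partner of the D-type cyclins, had 3 sites in its gene body of 179326 bp. The site in intron 6, at chr5:3516767-3517032 and 173 kb from the start, had peaks in 96 h replicates 2 and 3 (percentiles 21.2 and 17.8). The site in exon 2 was called in 96 h replicate 3 at percentile 64.0. Cdk4, the other partner kinase, had 1 site, 7.26 kb past the gene's end and 3.73 kb from the start of Agap2, called in 96 h replicate 3 alone at percentile 36.5.

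Among the E-type cyclins and Cdk2, which act at entry into S phase, 1 of 3 genes had a site. The share with a peak in some list was 52.3% to 56.6% in genes of similar length to each. The site lay 4.59 kb upstream of Ccne2 and was called in 96 h replicate 3 at percentile 3.33. Among 4 CDK inhibitors, Cdkn1a, which encodes p21, had a site in intron 1 at chr17:29232381-29232750. Its percentiles were 41.7 and 46.5 in resting replicates 1 and 3, and 44.1, 87.3 and 86.2 in the 96 h replicates. The site had no peak in any 48 h list, and its pooled percentile was 61.7 in resting cells and 95.3 at 96 h. Cdkn1b (p27), Cdkn2a (p16 and p19ARF) and Cdkn2c (p18) had no site in any list. Of genes of similar length to each of the 4 inhibitors, 49.9% to 57.2% had a peak in some list.

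In the RB and E2F families, 4 of 6 genes had a site, and E2f2, an activating E2F, had 4. For genes of similar length to each of the 6, the share with a peak in some list was 54.3% to 75.6%. The site 8.69 kb upstream of E2f2, chr4:135719465-135719768, had a peak in 8 of 9 replicates. Percentiles were 79.9, 61.8 and 71.7 in resting cells, 92.7 and 31.5 in 48 h replicates 1 and 3, and 80.8, 56.7 and 98.4 at 96 h. The missing replicate was 48 h replicate 2. A second site 12.1 kb upstream, chr4:135716030-135716356, had a peak in resting replicate 3 (69.0) and in all 3 replicates at 96 h (44.1, 98.5 and 88.8), and none in a 48 h list. The matches of these neighbouring sites lay on opposite strands, plus in the nearer and minus in the farther site.

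E2f1, another activating E2F, had a site 19.5 kb past its end, at chr2:154365516-154365718, with percentiles of 8.30 and 11.8 in 96 h replicates 2 and 3. The start nearest to this site, at 7.20 kb, was that of 1700003F12Rik. Rb1, which encodes the retinoblastoma protein, had sites in introns 2 and 12 that were called in pooled lists only. Rbl1 (p107) had a site 17.6 kb past its end in intron 2 of Samhd1, with percentile 69.0 in resting replicate 3, and a pooled 96 h peak in its intron 1 at percentile 12.4. Rbl2 (p130) and E2f3 had no site.

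Of 10 genes for origin licensing, the loading of the MCM helicase on origins before S phase, 5 had a site. Genes of similar length to each had a peak in some list in 49.9% to 62.0% of cases. Cdt1, which loads MCM together with Cdc6, had 1 site 16.3 kb upstream at chr8:125075431-125075740. It was called in all 3 resting replicates (percentiles 12.9, 48.4 and 84.1), in no 48 h list, and in all 3 replicates at 96 h (79.8, 87.2 and 40.8). The start nearest to it, at 356 bp, was that of Fam38a, and the site lay in intron 1 of the annotated gene Gm20388. Cdc6 had a site in its 3′UTR, in exon 12, at chr11:98783660-98783941. It was called in resting replicates 1 and 3 (91.9 and 91.6), in no 48 h replicate, and in 96 h replicates 2 and 3 (41.4 and 80.3). The pooled 48 h list had a peak there at percentile 22.5, beside 95.5 in resting cells and 85.4 at 96 h. The start nearest to the Cdc6 site, at 5.33 kb, was that of Rara, which codes for a retinoic acid receptor.

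Mcm5, a subunit of the helicase, had a site 828 bp upstream of its start, at chr8:77632472-77632727. It was called in resting replicate 3 (85.1), in 48 h replicate 1 (91.5) and in all 3 replicates at 96 h (69.3, 23.3 and 47.2). A second Mcm5 site, 4.25 kb past the gene's end at chr8:77656442-77656741, was called at 96 h in replicates 2 and 3 (58.9 and 27.7). Mcm6 had 2 sites upstream in introns of Dars, called in 1 or 2 replicates, and Mcm2 had 1 upstream site in the pooled 96 h list at percentile 4.20. Mcm3, Mcm4, Mcm7, Cdc45 and Orc1 had no site. At the replication fork, Pcna, the sliding clamp, and Pole, the leading-strand polymerase, each had 2 sites, all in pooled lists only. Genes of similar length to Pcna and Pole had a peak in some list in 49.8% and 64.3% of cases. Pola1, the catalytic subunit of polymerase alpha, had none within its 327389 bp on the X chromosome or the flanks, although 84.0% of 351 genes of similar length had a peak in some list.

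Mitotic cyclins, Cdk1 and Foxm1, a transcription factor of G2 genes, had 1 site each at Ccnb2, Cdk1 and Foxm1, each called in 1 replicate at percentiles of 3.33, 24.7 and 2.44. Ccna2 and Ccnb1 had none. Of genes of similar length to each gene of this group, 52.4% to 57.0% had a peak in some list. Aurka, a kinase of the centrosomes and spindle poles, had the highest-scoring of the sites seen in several replicates. The site chr2:172203878-172204192, 8000 bp upstream in intron 5 of Cstf1, had percentiles of 95.1, 38.6 and 90.9 in resting cells and 86.5, 96.8 and 99.4 at 96 h. No 48 h list had a peak there, including the pooled list.

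Mad2l1, a protein of the spindle checkpoint, had a site 1.95 kb upstream in all 3 pooled lists, at percentiles of 59.4, 41.4 and 87.0 in time order, but in a single replicate, 96 h replicate 3, at 95.8. Bub1, a checkpoint kinase, had a site 1.15 kb upstream in 96 h replicate 3 at percentile 0.146. Plk1 and Cdc20 had no site. For the mitotic kinases and checkpoint genes, Aurka and Aurkb included, 49.6% to 61.1% of genes of similar length to each had a peak in some list. Mki67, whose product Ki-67 marks dividing cells, had a site 19.4 kb upstream, between genes, at chr7:142927313-142927642. It was the single one of the 48 sites with a peak in all 9 replicates, as had 38 of all 18957 sites. Its peak in 48 h replicate 2 was 58 bp wide, against 136 to 272 bp in the other replicates. Percentiles were 46.7, 70.9 and 79.1 in resting cells, 91.9, 11.6 and 2.98 at 48 h, and 40.4, 53.3 and 57.1 at 96 h. They spanned a wider range at 48 h than at either other time point, and the ranges overlapped. Top2a, topoisomerase II alpha, had a site in 96 h replicate 3 (19.7) and another in the pooled 96 h list. Genes of similar length to Mki67 and Top2a had a peak in some list in 60.9% and 61.2% of cases.

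Of the 9 sites called in 2 or 3 resting replicates, 6 had no peak in any 48 h replicate, at Ccnd3, Cdkn1a, Cdc6, Cdt1, Aurka and Aurkb. This was 66.7%, where 38.9% of 1762 such sites over the genome had none. The number at the 44 genes was also 6 when 48 h replicate 2 was disregarded, and the share over the genome was then 40.5%. None of the 9 lacked a peak at 96 h, where 5.22% of all such sites did. Of the 14 sites called in 2 or 3 replicates at 96 h, 10 had none in a 48 h replicate (71.4% beside 60.2% of all such sites) and 4 had none in a resting replicate (28.6% beside 46.9%). For a single site, 3 of 3 replicates against 0 of 3 gives p = 0.1 by Fisher's exact test, two-sided, the smallest this design allows. Ccnd3, Cdt1 and Aurka reached it between 48 h and each other time point, but were described for this pattern, so the value is no test of it.

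Replicate support over all 48 sites was uneven. There were 12 sites in pooled lists only, 19 with a peak in 1 replicate, 11 in 2 to 5 and 6 in 6 or more. The last group was 12.5% of the sites at the 44 genes, beside 4.94% of all sites. The median score percentile of the peaks at the 44 genes was 46.7, 48.4 and 69.0 in the resting replicates, 91.7, 67.5 and 20.0 at 48 h, and 50.5, 58.9 and 43.97 at 96 h, which overlapped between all time points. The 48 h values rested on 4, 6 and 4 peaks.

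**Figure D3:**
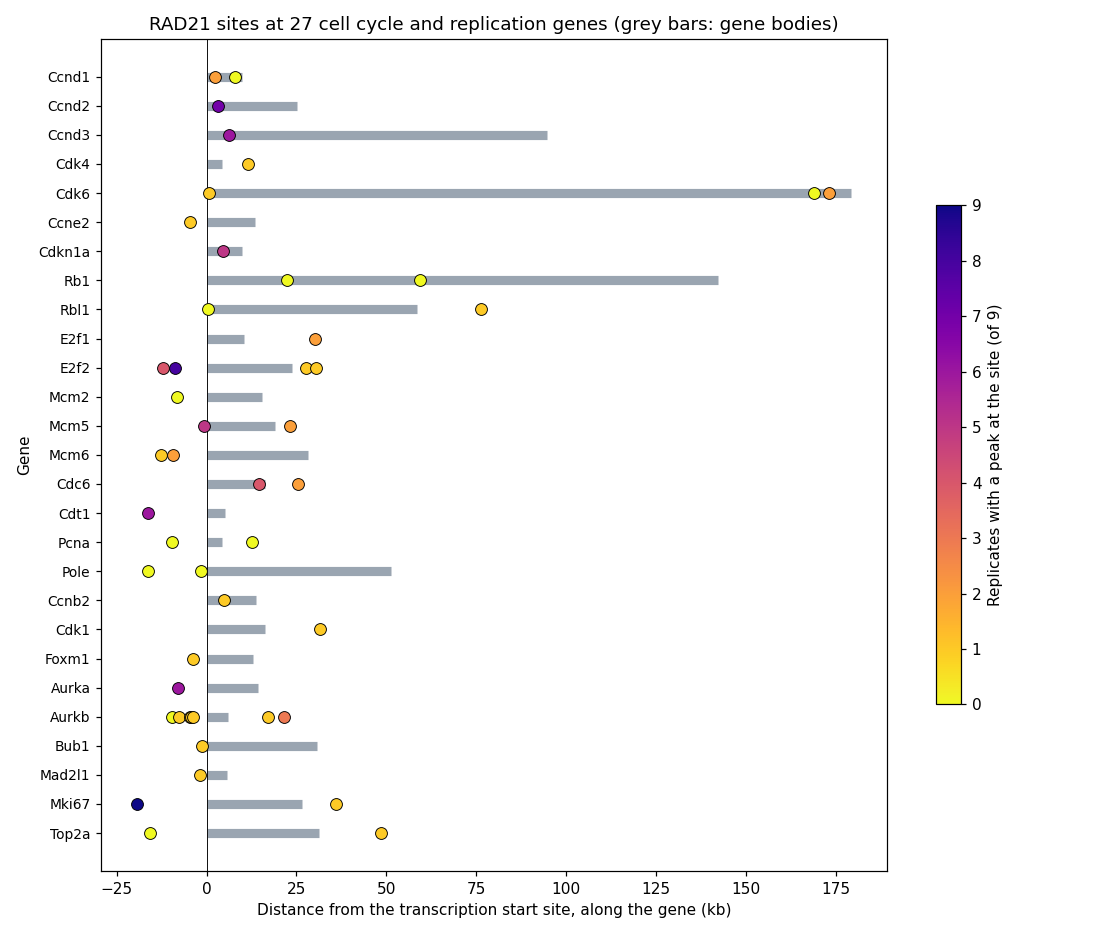
The distance of the 48 sites from the transcription start of their gene is plotted in kb, with negative values upstream, gene bodies as grey bars and colour for the number of replicates with a peak. The darkest point is the Mki67 site 19.4 kb upstream, and the sites of Cdk6 lie near both ends of its gene body.

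By position, 22 of the 48 sites were upstream of the gene, 13 in the gene body and 13 past its end. The median distance from the start of the gene was 10655 bp, and 7 sites lay within 3 kb of it. For 22 sites the nearest start of a protein-coding gene was that of another gene, so a site within 20 kb cannot be tied to the named gene from position alone. No site lay at 2 of the 44 genes. Site density was 1.47 per 100 kb of the windows of the 44 genes, beside 1.13 for the windows of all protein-coding genes, and 1.31 beside 0.957 without the sites of 48 h replicate 2 alone.

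Aurkb, which encodes the kinase of the chromosomal passenger complex, had 7 sites, more than any other of the 44 genes. Its site 15.4 kb past the gene's end, chr11:68880439-68880713, held the motif and was called in resting replicates 1 and 3 (percentiles 28.5 and 18.0) and in 96 h replicate 2 (46.2). Another, 9.58 kb upstream, was in the pooled 96 h list only. The other 5 sites had a peak in 48 h replicate 2 and in no other replicate, were 58 to 108 bp wide and held no match to the motif. Their percentiles in that replicate were 80.5, 95.8, 54.4, 28.6 and 85.8. The peaks of 48 h replicate 2 are given below because their sequence sets them apart from the other sites. The B box, a promoter element inside tRNA genes that is bound by the RNA polymerase III machinery, is in capitals where it was found. It was searched on both strands as the 11 letters shown, with any base at position 8.
Peak 1, chr11:68851347-68851426, plus strand: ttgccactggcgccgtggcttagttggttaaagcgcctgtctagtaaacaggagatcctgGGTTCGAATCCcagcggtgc
Peak 2, chr11:68854482-68854574, plus strand: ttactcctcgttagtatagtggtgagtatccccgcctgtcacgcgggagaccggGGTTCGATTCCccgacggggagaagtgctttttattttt
Peak 3, chr11:68854785-68854864, minus strand: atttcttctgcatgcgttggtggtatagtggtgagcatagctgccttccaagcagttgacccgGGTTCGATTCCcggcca
Peak 4, chr11:68855338-68855395, plus strand: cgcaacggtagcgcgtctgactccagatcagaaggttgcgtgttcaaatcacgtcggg
Peak 5, chr11:68876256-68876320, minus strand: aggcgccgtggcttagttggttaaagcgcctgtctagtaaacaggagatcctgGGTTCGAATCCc
The 11 letters were in 4 of the 5 peaks, and a B box with other letters would not have been found. Peaks 1 and 5 shared a long run of letters although they lay on opposite sides of the gene.

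The B box was chosen for counting after these peaks had been seen. Its 11 letters were found in 60 of all 18957 sites (0.317%). At 56 of these 60 sites 48 h replicate 2 had a peak, while the other 8 replicates had one at 2 to 8 of them. RefSeq, on assembly GRCm38, places 11 tRNA genes within 20 kb of Aurkb, 7 of them between Ctc1 and Aurkb and 4 between Borcs6 and Tmem107, and none within 20 kb of any other of the 44 genes. A tRNA gene lay that near to 1.12% of protein-coding genes. In a count added after the data had been seen, which left out 48 h replicate 2, a peak at 48 h in replicate 1 or 3 was found for 4 of the 44 genes, namely Ccnd2, E2f2, Mcm5 and Mki67 (9.09%, beside 12.5% of genes of similar length). Aurkb had no 48 h peak in those replicates. Whether the peaks of this library mark cohesin was not tested.

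**Figure D4:**
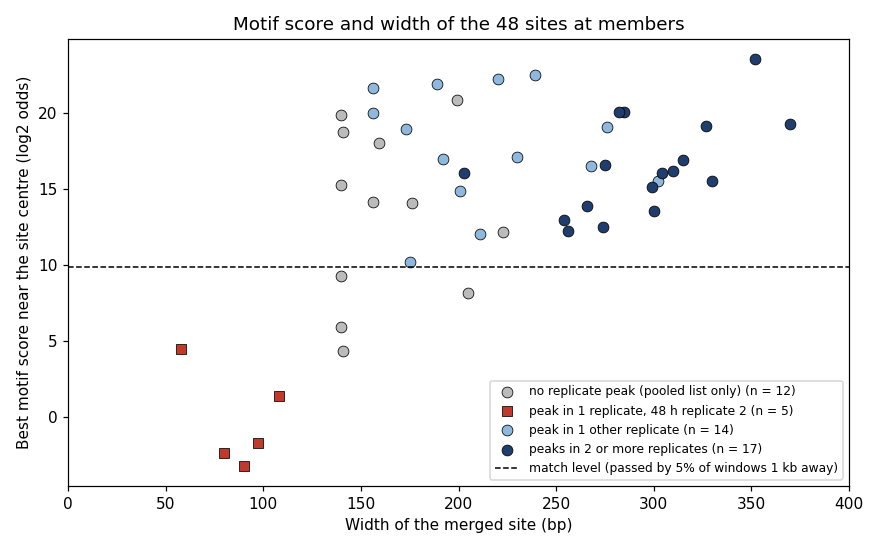
Motif score near the site centre, in log2 odds, is plotted against the width of the merged site in bp for the 48 sites, with the dashed line at the match level of 9.82. The 5 squares, sites at Aurkb with a peak in 48 h replicate 2 as the only replicate, are 58 to 108 bp wide and under the line, and the 31 sites with a peak in other replicates are all above it.

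The 12 sites found in pooled lists only had a median width of 148.5 bp, against 299 bp for the 17 sites with a peak in 2 or more replicates. Over all sites these widths were 163 and 270 bp. The motif was held by 8 of the 12 (66.7%), where 83.2% of all sites without a replicate peak held it. Repeats of a unit of 1 to 4 bases running over 20 bases or more were found at none of the 48 sites and at 16.9% of other sites, or 5.30% of those without the sites of 48 h replicate 2 alone.

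The 17 genes without a site in any list were Ccne1, Cdk2, Cdkn1b, Cdkn2a, Cdkn2c, Rbl2, E2f3, Mcm3, Mcm4, Mcm7, Cdc45, Orc1, Pola1, Ccna2, Ccnb1, Plk1 and Cdc20. Apart from Pola1, between 49.6% and 68.4% of genes of similar length to each had a peak in some list. By length, the 15 shortest genes (up to 9939 bp) had a peak in 6, 3 and 6 cases in the pooled resting, 48 h and 96 h lists, or 40.0%, 20.0% and 40.0% beside 20.3%, 13.4% and 35.8% of other short genes. The 14 genes of middle length had one in 5, 3 and 10 cases, or 35.7%, 21.4% and 71.4% beside 28.6%, 19.7% and 50.5%. The 15 longest genes (from 25270 bp) had one in 8, 2 and 10 cases, or 53.3%, 13.3% and 66.7% beside 31.7%, 29.2% and 58.4%. Among the short genes counted at 48 h was Aurkb, whose pooled 48 h peaks lay only where 48 h replicate 2 was the only replicate. The counts by length were not repeated without that replicate.

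Another 86 genes of the cell cycle and replication, among them Cdc25a, Chek1, Mcm10, the Gins and Orc subunits, Rrm2 and Cenpe, were counted by the same rule. In the pooled lists 29, 24 and 51 of them had a peak in resting, 48 h and 96 h-stimulated B cells, or 33.7%, 27.9% and 59.3%. Genes of similar length to these had 28.9%, 21.5% and 51.5%. A peak in the pooled resting list and none in the pooled 48 h list was found for 13 of the 86 (15.1%), beside 13.9% of genes of similar length. A peak in at least 2 resting replicates and in no 48 h replicate was found for 4 (4.65%), beside 3.91%. Both shares were near their background, and the 44 genes had 25.0% and 11.4%.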

How the data were processed

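RAD21 ChIP-seq was performed in 9 samples, with 9 input libraries used in peak calling only. The authors aligned reads to mm9 with Bowtie 2, sampled every aligned set down to the same number of unique positions and called peaks with MACS 2 against input. The deposited unit is a score per peak, whose statistic is not named in the sources used here, and it only ranked peaks within a list. Read depth per peak is unknown, and intervals cover counting error only.

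Peaks sharing at least 1 bp were merged. Exons were numbered along the longest protein-coding transcript over the site. The motif was learned from the 8-base word AGAGGGCA and its match level was that passed by 5% of windows 1000 bp away. Sites were described in full by the rule given with their sequences. The members and lists were chosen with earlier results of these data known, so the planned exact permutation tests over the 9 replicates are not given as p for totals over the 44 genes. Names of tRNA genes and neighbours came from RefSeq on GRCm38. Alternatives were a stricter score, lists of equal length, other flanks, any overlap, other merging, replicate support, other matching by length, permutation within replicate numbers and leaving out replicates. The tools were Python 3.11.15, scipy 1.17.1, numpy 2.4.6, matplotlib 3.10.9 and pysam 0.24.0. The code was tested on simulated data.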

Additional observations from a re-analysis of the deposited data

How the results depend on the processing

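The mean differences per replicate kept their direction under most alternatives. Those in the number of genes with a peak were -6, 4.67 and 10.7 for 48 h minus resting, 96 h minus resting and 96 h minus 48 h. Leaving out 1 replicate, they ran from -8 to -4, from 1.5 to 7.5 and from 7.5 to 13.5. For the number of peaks (-5.33, 6.67 and 12) the ranges were -7.83 to -2.33, 2 to 10.5 and 7.33 to 15.8. For the percent of peaks (-0.285, -0.177 and 0.108) they were -0.318 to -0.228, -0.210 to -0.120 and 0.0597 to 0.133. For the excess over genes of similar length (-10.5, -3.30 and 7.24 points) they were -12.4 to -8.16, -4.04 to -2.19 and 4.85 to 9.06. For the median score percentile (4.99, -3.64 and -8.63) they were -10.99 to 24.9, -7.64 to 3.52 and -28.5 to 7.35. The ends far from the value with all replicates came without 96 h replicate 3 (1.5 genes and 2 peaks for 96 h minus resting) or 96 h replicate 1 (7.5 and 10.5), without resting replicate 3 (-2.33 peaks for 48 h minus resting), without 48 h replicate 2 (0.0597% for 96 h minus 48 h), and for the percentile, whose direction turned, without 48 h replicate 1 or resting replicate 3. With lists of equal length, 96 h minus resting became -1 for both genes and peaks. With no flank, 96 h minus resting in excess became 0.560 points. The median percentile had no stable direction. For 48 h minus resting it was -1.02 with no flank and -6.00 with a flank of 50 kb. For 96 h minus 48 h it was 17.3 and 1.97 under the same settings, and for 96 h minus resting 2.33 with a stricter score, 17.0 with lists of equal length and 16.2 with no flank.

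The share of genes with a peak in the pooled lists moved with the window, to 15.9%, 6.82% and 20.5% (time points in order) with no flank and to 65.9%, 34.1% and 75.0% at 50 kb. With support by at least 2 replicates it was 20.5%, 6.82% and 27.3%. A stricter score gave 6.82% at 48 h and 36.4% at 96 h, and lists of equal length 27.3% at 96 h. The difference from genes of similar length, in the same order, was 6.78, 0.115 and 2.17 points with no flank and 22.2, -0.484 and 4.65 at 50 kb. It was 9.73, 2.83 and 2.92 with support by at least 2 replicates, and 11.3, 2.35 and 0.524 with a stricter score. With lists of equal length it was -1.43 at 96 h. The 48 sites became 27 with a stricter score, 27 with lists of equal length, 13 with no flank and 81 at 50 kb. The deviations of same-numbered samples correlated at -0.0632 to 0.159. Samples with different numbers were not compared, so this does not decide whether replicate numbers pair the samples. Permuting within numbers as a replicate block leaves each difference as it stands (-6 genes for 48 h minus resting). The median percentile at 48 h rested on 4, 6 and 4 peaks.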
